A study of Saccharomyces cerevisiae with 4 samples.

Results

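The comparison described here set small RNAs of budding yeast cells that carried both DCR1 and AGO1 against those of wild-type cells, gene by gene. Every identifier of the deposited table was used, 5798 of 5798, and 2 of the 4 libraries of the series. The first library, called RNAi below, came from strain YAM1725 of genotype DCR1 AGO1. The second, called WT, came from the wild-type strain YAM1730. Both have an intact XRN1 gene. A second pair of libraries, from strain YAM1982 (xrn1 deletion with DCR1 and AGO1, called xrn1 RNAi) and strain YAM2271 (xrn1 deletion, called xrn1), shares no library with the first and is set beside it where stated. Each genotype is 1 strain and 1 library, so no difference between RNAi and WT has a replicate check and no p-value is given. The promoters of DCR1 and AGO1, the marker genes of each strain and the growth stage are not stated in the sources used here. DCR1 and AGO1 themselves were not analysed here, so their presence rests on the labels. XRN1, the gene deleted elsewhere in the series, had 12.4 in RNAi and 148 in WT (39 reads in RNAi), so its transcript was read in both libraries.

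RNA interference starts from double-stranded RNA. Dicer, an RNase III enzyme, cuts it into short duplexes, and Argonaute holds 1 strand of each and uses it to find matching RNA. Saccharomyces cerevisiae has lost the pathway, while relatives such as Naumovozyma castellii keep it, and putting a Dicer and an Argonaute gene back restores silencing. In a compact genome, paired RNA can form where transcripts of both strands cover the same bases, as at the ends of genes that point at each other and where a noncoding transcript runs antisense to a gene. Xrn1 is the main cytoplasmic exonuclease that degrades decapped RNA from its 5′ end, and many antisense noncoding transcripts of yeast are among its substrates.

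To show what such an overlap looks like, the shared bases of 3 convergent gene pairs are printed here from the plus strand of RefSeq assembly R64, with the overlap of both coding regions in capitals and 10 bases of flank on each side in lower case. Of 12 such pairs these have overlaps of 24 to 35 bases, and they were chosen after their values were seen. CTF19 (a kinetochore protein) and IRC15 (a microtubule-associated protein) share 27 bases, VPS38 (a subunit of a vacuolar sorting kinase complex) and DCR2 (a phosphatase of the unfolded protein response, unrelated to Dicer) share 35, and ATG29 (an autophagy protein) and SET6 (a SET-domain protein) share 24.
CTF19 and IRC15, chrXVI:518724-518770, +: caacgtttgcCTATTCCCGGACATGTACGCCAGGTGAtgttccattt
VPS38 and DCR2, chrXII:847378-847432, +: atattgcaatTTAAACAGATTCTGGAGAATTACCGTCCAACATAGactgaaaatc
ATG29 and SET6, chrXVI:237946-237989, +: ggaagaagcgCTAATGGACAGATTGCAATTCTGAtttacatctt
CTF19 had 523 in RNAi and 48 in WT, and IRC15 945 in RNAi and 65 in WT, so that both genes of the first pair were higher in RNAi. VPS38 had 116 in RNAi and 64 in WT, and DCR2 222 in RNAi and 40 in WT. ATG29 had 5.08 in RNAi and 14 in WT, and SET6 4.76 in RNAi and 25 in WT, so that both genes of the third pair were lower on the deposited scale. With the size factors described below, the log2 difference of ATG29 turned from −1.06 to 0.34, while that of SET6 was −1.83 and became −0.39, so the direction of ATG29 rests on the scaling.

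The values keep the scale of the deposit: a single read counts 0.318 in RNAi and 1 in WT. They are sums over a gene and are not divided by its length, except where given per kb of coding sequence. The listed genes held 1801407 reads in RNAi and 627607 in WT. A gene was counted where either library reached 3.18, the pseudocount added before taking log2, which left 5479 genes, with 319 not counted. A gene is called higher or lower here where its log2 difference, RNAi minus WT, was 1 or more in size. Folds quoted for a gene are plain ratios, and their intervals cover counting error alone. Mitochondrial genes held 0.361% of the summed value in RNAi and 26.7% in WT, which bears on every other gene's share of its library; its part in the results was not tested.

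On the deposited scale most genes held less small RNA in RNAi than in WT, and a minority held far more. Of the genes counted, 833 were higher, which is 15.2%, and 3303 were lower, which is 60.3%. Among the 5451 nuclear coding genes counted, 831 (15.2%) were higher and 3278 (60.1%) lower, and the median difference was −1.56 on the log2 scale. These shares rest on the scale of each library. With size factors, which move every gene of RNAi up by 1.91 on the log2 scale against WT, 1882 of 5485 genes (34.3%) were higher and 1762 (32.1%) lower. With them, 517 genes called lower turned to a positive difference. An upward shift cannot turn a gene called higher negative, so it is no check on the higher calls. Gene groups are therefore read below against the nuclear median of −1.56 and the 15.2% and 60.1%.

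The small RNA of RNAi was gathered on few genes. A share of 50% of the summed nuclear value was held by 136 genes in RNAi and by 861 genes in WT. The 10 highest genes held 10.5% of it in RNAi and the 10 highest of WT 3.63%, and the 100 highest held 44.5% in RNAi and 15.0% in WT. The rank order of nuclear genes in RNAi was closer to that of xrn1 RNAi (Spearman's rho 0.839 over 5767 genes) than to that of WT (0.487), as a description of these libraries.

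**Figure D1:**
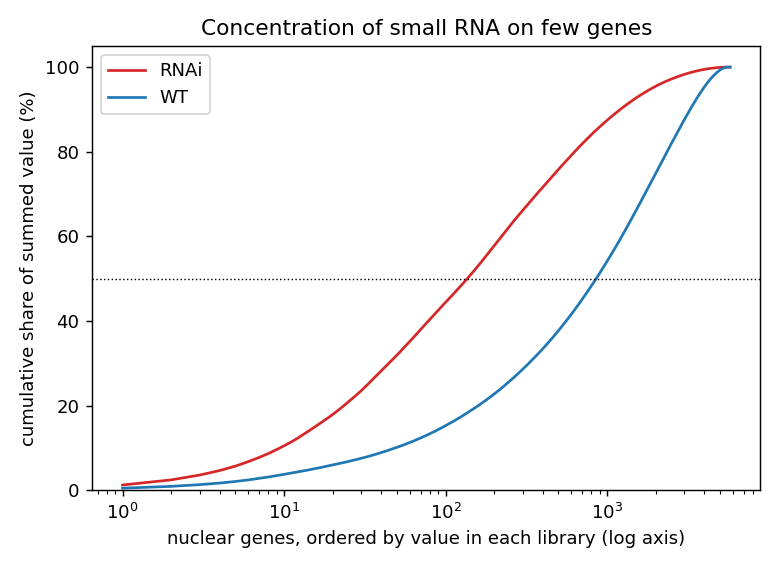
Cumulative share of the summed nuclear value (percent, vertical axis) against genes ordered from the highest value in each library (log axis), for RNAi (red) and WT (blue). The RNAi curve crosses 50% at 136 genes and the WT curve at 861 genes.

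Per kb of coding sequence, the gene with the most small RNA in RNAi was TRP1, which encodes phosphoribosylanthranilate isomerase of tryptophan synthesis, with 8836 per kb in RNAi and 182 per kb in WT. HMS2, a gene similar to heat shock factors, came next with 6424 per kb in RNAi and 102 per kb in WT. SGF29, a SAGA coactivator subunit that binds methylated histone H3, had 4500.2 per kb in RNAi and 123 per kb in WT. The other genes among the 10 highest per kb were MEP3, MCH5, ADH1, FET4, FCY21, ICL1 and UIP5, from 4170.0 down to 2696 per kb in RNAi, and those 7 had 150.1 per kb or less in WT apart from ADH1, which had 221. None of the 10 was among the 10 nuclear genes with the highest WT values.

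TRP1 was also the only one of 9 common auxotrophic marker genes called higher, with 4 of the 9 lower, and with size factors 4 were higher and 1 lower. Whether TRP1 served as a marker, or was carried on a construct, in either strain is not stated in the sources used here, so its reads cannot be assigned to the chromosomal gene, and its value per kb assumes 1 copy. TRP1 had 5964 in RNAi and 123 in WT, and the next in order was URA3, a uracil synthesis gene, with 3.18 in RNAi and 1 in WT and a log2 difference of 0.61. URA3 lay at the cut of the filter and passed it through RNAi alone, so its place in the order is set in part by the filter. HIS3, of histidine synthesis, had 65.4 in RNAi and 66 in WT, while ADE2, of adenine synthesis, was lowest with 5.40 in RNAi and 80 in WT.

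**Figure D2:**
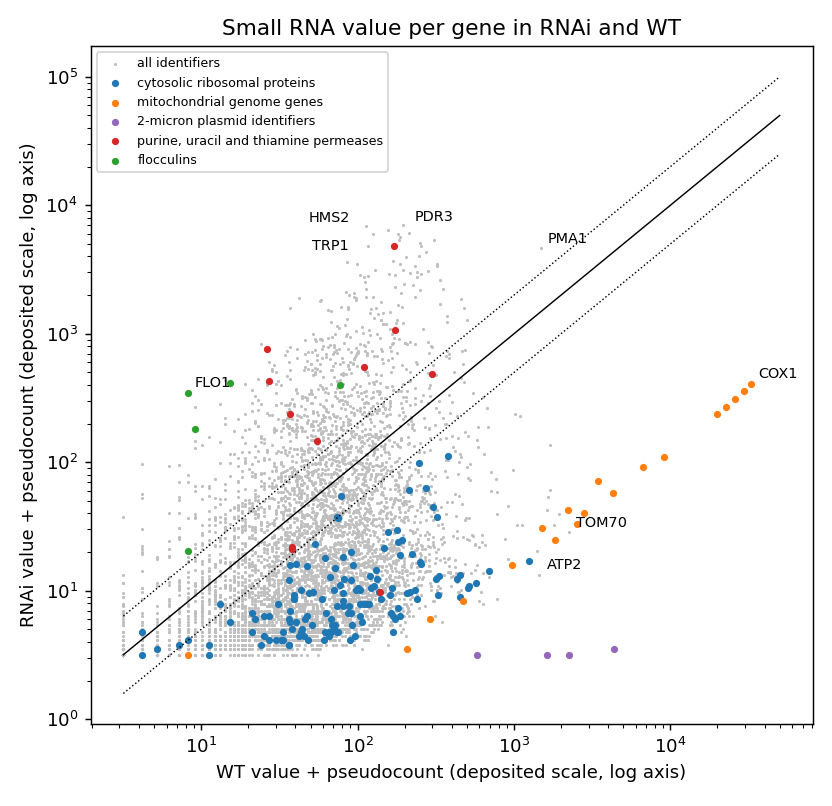
Value plus pseudocount in RNAi (vertical) against WT (horizontal), both log axes on the deposited scale, 1 point per identifier, with the line of equal values and dotted lines 2-fold to either side. Most ribosomal protein genes lie below the lines, the mitochondrial genome and 2-micron points lie far below, and the flocculin points and most of the base and thiamine permease points lie above.

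Lists of permeases for bases and vitamins, ammonium, amino acids and metal ions had larger shares of higher genes than the 15.2% of all nuclear genes. Of 11 permeases for purines, uracil and thiamine, 7 were higher and 1 was lower, with a list median of 2.32 on the log2 scale. FCY21, similar to the purine-cytosine permease, had 4819 in RNAi and 167 in WT, which is 28.9-fold higher (95% interval 24.8 to 33.8). FCY2, the purine-cytosine permease itself, had 1059.8 in RNAi and 170 in WT, and its relative FCY22 had 234 in RNAi and 34 in WT. THI72, a thiamine transporter homologue, had 762 in RNAi and 23 in WT, and NRT1, a nicotinamide riboside transporter of the same family, had 427 in RNAi and 24 in WT. FUR4, the uracil permease, had 144 in RNAi and 52 in WT. The 1 lower gene was TPN1, the pyridoxine transporter, with 6.67 in RNAi and 135 in WT, which is 20.2-fold lower (95% interval 12.7 to 33.8). FCY2, FCY21 and FCY22 are close paralogs, as are THI72 and NRT1, so reads shared between copies could not be placed here.

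Ammonium permeases take up the preferred inorganic nitrogen source, and 2 of the 3 were higher. MEP3 had 6129.9 in RNAi and 210 in WT, which is 29.2-fold higher (95% interval 25.5 to 33.6), and MEP1 had 3125 in RNAi and 126 in WT, which is 24.8-fold higher (95% interval 20.8 to 29.8). MEP2, which also acts as a sensor for filamentous growth, had 68.0 in RNAi and 126 in WT and a log2 difference of −0.86, which is 0.99 with size factors. Among 20 amino acid permeases, 6 were higher and 8 lower, with a median of −0.18, and with size factors 12 were higher and 2 lower. TAT1, a tyrosine and tryptophan permease, had 4328 in RNAi and 271 in WT, and DIP5, a dicarboxylic amino acid permease, had 689 in RNAi and 60 in WT. GAP1, the general amino acid permease, was on the other side with 29.9 in RNAi and 341 in WT, as was GNP1, a glutamine permease, with 18.4 in RNAi and 215 in WT.

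Transporters of phosphate, sulfate and metal ions had 11 of 27 counted members higher and 6 lower, with a median of 0.52, and with size factors 21 were higher and 0 lower. FET4, the low-affinity iron transporter, had 5048 in RNAi and 249 in WT, which is 20.3-fold higher (95% interval 17.9 to 23.1). The plasma membrane proton pump genes PMA1 and PMA2, themselves near-identical in part, were both higher: PMA1 had 4623 in RNAi and 1479 in WT and PMA2 819 in RNAi and 107 in WT. PMA1 was the only one of the 10 nuclear genes with the highest WT values that was higher in RNAi. SUL2, a sulfate permease, had 302 in RNAi and 74 in WT, and ZRT1, the high-affinity zinc transporter, had 117 in RNAi and 15 in WT. Iron uptake and ferric reductase genes had 11 of 23 members higher and 9 lower, and with size factors 14 higher and 2 lower. FRE5 and FRE7, both of the ferric and cupric reductase family, had 2769.9 in RNAi and 107 in WT and 1828 in RNAi and 94 in WT, and FRE3, a siderophore reductase gene, had 1169 in RNAi and 80 in WT. FET3, the multicopper oxidase of high-affinity iron uptake at the cell surface, had 4016 in RNAi and 243 in WT, but its vacuolar relative FET5 had 1.91 in RNAi and 81 in WT. Of 8 genes of a mixed list of MCH, JEN1, ADY2 and ATO transporters, 3 were higher and 2 lower. The higher ones were MCH5 (riboflavin uptake, 6462 in RNAi and 154 in WT), JEN1 (lactate and pyruvate uptake, 180.4 in RNAi and 30 in WT) and ATO3 (a putative ammonia exporter, 95.6 in RNAi and 16 in WT). The lower ones were ADY2 (acetate uptake, 0.953 in RNAi and 37 in WT) and MCH1 (3.49 in RNAi and 55 in WT).

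Cell surface adhesion genes formed the one list with every member higher. All 5 flocculin genes, which encode lectin-like or adhesive wall proteins, were higher, with a median of 4.31. FLO1 had 344 in RNAi and 5 in WT, FLO5 had 407 in RNAi and 12 in WT and FLO11 had 179 in RNAi and 6 in WT. FLO10 had 393 in RNAi and 74 in WT and FLO9 17.1 in RNAi and 5 in WT. The WT values of 4 of these were 12 reads or fewer, and FLO1, FLO5 and FLO9 share long repeats, so the copy that gave the reads is uncertain. Of 47 other or overlapping cell wall protein genes, 12 were higher and 22 lower, with a median of −0.56, and with size factors 25 were higher and 6 lower. HPF1, a wall mannoprotein, had 1906 in RNAi and 39 in WT, YGP1, a secreted glycoprotein of stationary phase, had 438 in RNAi and 20 in WT, and PLB2, a phospholipase B, had 1543 in RNAi and 84 in WT. GAS1, the glucan-remodelling enzyme, had 14.9 in RNAi and 312 in WT and was the lowest of the list. Of the COS genes, a subtelomeric family, 6 of 11 were counted, all on low values. COS6 had 15.6 in RNAi and 3 in WT, COS7 had 8.26 in RNAi and 0 in WT, and COS10 had 7.30 in RNAi and 30 in WT. COS6 and COS7 passed the filter through RNAi alone, so no share of the family is read. None of 24 seripauperin genes was counted.

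Regulators of transcription were split. Of 47 zinc cluster transcription factor genes, 14 were higher and 17 lower, with a median of −0.34, and with size factors 28 were higher and 10 lower. PDR3, a regulator of multidrug resistance, had the highest value of any gene in RNAi, with 7073 in RNAi and 193 in WT. RDS1, also of the zinc cluster family, had 2510.4 in RNAi and 108 in WT, HAP1, the haem-responsive regulator, had 2450.4 in RNAi and 196 in WT, and GAL4, the galactose regulator, had 910.2 in RNAi and 55 in WT. TEA1, a Ty1 enhancer activator, had 4.13 in RNAi and 206 in WT, the lowest of the family. Of 27 ABC transporters and PDR regulators, 9 were higher and 10 lower, with a median of 0.27, and with size factors 17 were higher and 2 lower. YCF1, the vacuolar glutathione conjugate pump, had 3075 in RNAi and 279 in WT, while PDR5, the main drug efflux pump and a target of PDR3, had 56.8 in RNAi and 708 in WT, and PDR16, a phosphatidylinositol transfer protein of the same regulon, had 1.91 in RNAi and 66 in WT. In the SAGA complex, 4 of 19 genes were higher and 11 lower (5 and 4 with size factors); SGF29 had 3510.2 in RNAi and 96 in WT, whereas SPT7, a core subunit, had 22.9 in RNAi and 349 in WT and TAF12 1.91 in RNAi and 48 in WT.

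Of the 10 highest values in RNAi, 4 belonged to signalling and cell cycle genes. SWE1, the kinase that restrains the cyclin-dependent kinase before mitosis, had 5967 in RNAi and 179 in WT, which is 33.3-fold higher (95% interval 28.8 to 38.8). FAR1, the cyclin-dependent kinase inhibitor of the pheromone response, had 5624 in RNAi and 183 in WT, which is 30.7-fold higher (95% interval 26.6 to 35.7). Of 30 cyclins and cell cycle inhibitors, 8 were higher and 15 lower (14 and 6 with size factors), and the lowest was CLB3, a B-type cyclin, with 1.27 in RNAi and 76 in WT. SSK22, a MAP kinase kinase kinase of the osmotic stress pathway, had 5391 in RNAi and 305 in WT, and RIM15, a kinase of nutrient signalling, had 5332 in RNAi and 182 in WT. Of 28 counted mating genes, 5 were higher, among them PRM1, a membrane fusion protein (752 in RNAi and 38 in WT), and 18 were lower, the lowest being STE11, a MAP kinase kinase kinase (3.18 in RNAi and 80 in WT). With size factors 11 mating genes were higher and 9 lower. Of 60 counted meiosis and sporulation genes, 9 were higher and 30 lower, with a median of −1.01, and with size factors 23 were higher and 17 lower, with a median of 0.55; SMK1, a sporulation MAP kinase, had 826 in RNAi and 21 in WT, while SPO19, a prospore protein gene, had 5.08 in RNAi and 302 in WT and SPR3, a sporulation septin gene, had 0.635 in RNAi and 77 in WT.

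Genes of carbon metabolism were found in both directions within short pathways. Of 8 galactose genes, 4 were higher and 3 lower, and with size factors 4 were higher and 1 lower. GAL1, the galactokinase, had 1607 in RNAi and 84 in WT, and GAL80, the repressor of Gal4, had 905 in RNAi and 50 in WT. GAL10, the epimerase transcribed away from GAL1, had 69.2 in RNAi and 31 in WT. GAL7, the transferase, had 0 in RNAi and 14 in WT, so it was at least 14.7-fold lower against the value of 3 reads in RNAi, and GAL2, the galactose permease, had 3.49 in RNAi and 31 in WT. In glycolysis, 3 of 17 genes were higher and 6 lower, with a median of −0.16, and with size factors 10 were higher and 3 lower; FBA1, the aldolase, had 13.0 in RNAi and 480 in WT and PFK2, a phosphofructokinase subunit, 6.35 in RNAi and 174 in WT. Of 18 pyruvate decarboxylase and dehydrogenase genes, 5 were higher and 6 lower, and with size factors 10 were higher and 2 lower. ADH1, the main alcohol dehydrogenase of fermentation, had 3388 in RNAi and 231 in WT, and BDH2, similar to butanediol dehydrogenase, had 646 in RNAi and 76 in WT, while ADH4 had 1.27 in RNAi and 34 in WT. In gluconeogenesis and the glyoxylate cycle, 4 of 19 were higher and 10 lower, and with size factors 7 were higher and 3 lower: ICL1, the isocitrate lyase, had 4809 in RNAi and 114 in WT and CAT8, its activator, 805 in RNAi and 57 in WT, but FBP1, the fructose bisphosphatase, had 3.81 in RNAi and 75 in WT. Peroxisomal beta-oxidation had 2 of 17 higher and 6 lower (10 and 3 with size factors), with CTA1, the peroxisomal catalase, at 573 in RNAi and 47 in WT and PIP2, an oleate-responsive regulator, at 10.5 in RNAi and 102 in WT. Trehalose and glycogen genes had 2 of 15 higher and 6 lower (9 and 1 with size factors), with GLC3, the branching enzyme, at 888 in RNAi and 56 in WT and NTH1, the trehalase, at 22.2 in RNAi and 240 in WT.

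**Figure D3:**
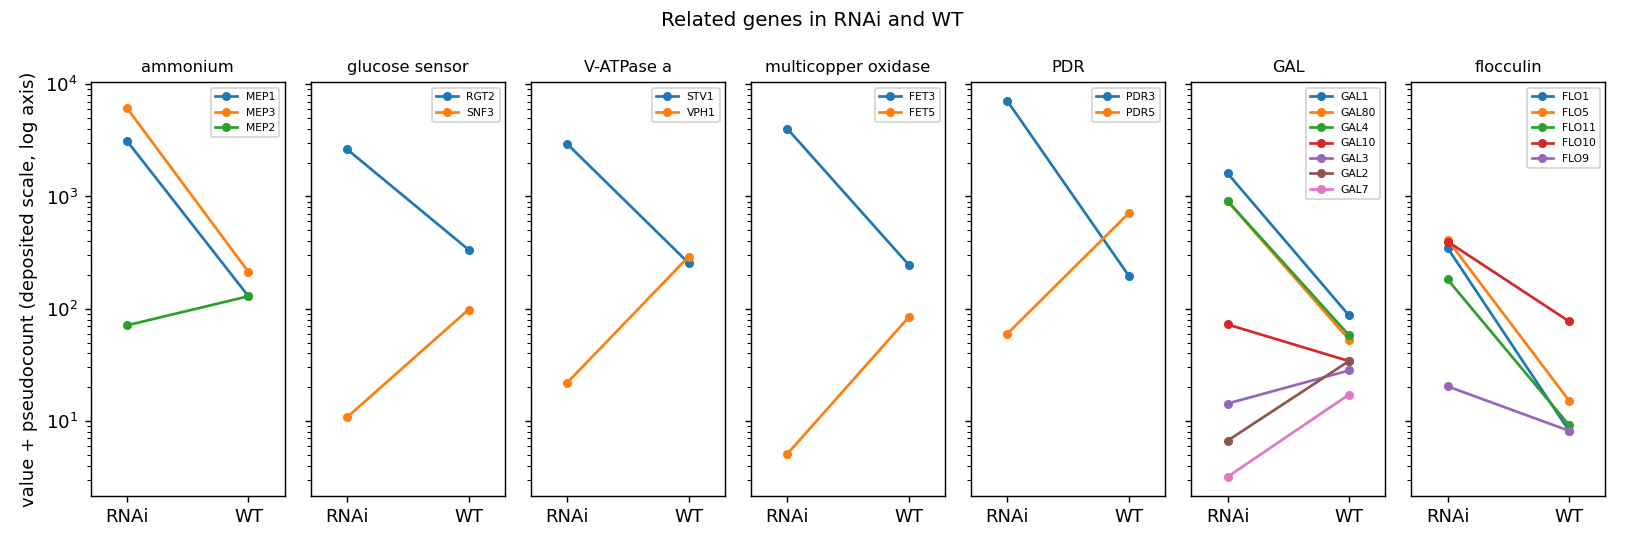
Value plus pseudocount (log axis, deposited scale) in RNAi (left of each panel) and WT (right) for related genes, 1 line per gene and 1 library per point. MEP1 and MEP3, RGT2, STV1, FET3 and PDR3 slope down from RNAi to WT, while MEP2, SNF3, VPH1, FET5 and PDR5 slope up, and the GAL genes spread both ways.

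Some close relatives lay on opposite sides, and the pairs given here were picked after their values were seen. STV1 and VPH1 encode alternative forms of the same V-ATPase subunit, in the Golgi and endosomes and in the vacuole. STV1 had 2934 in RNAi and 252 in WT, which is 11.6-fold higher (95% interval 10.3 to 13.2), and VPH1 had 18.7 in RNAi and 288 in WT, which is 15.4-fold lower (95% interval 11.6 to 20.7). RGT2 and SNF3 encode the glucose sensors of the hexose transporter family. RGT2, the low-affinity sensor, had 2631 in RNAi and 333 in WT, and SNF3, the high-affinity one, had 7.62 in RNAi and 95 in WT. Of 14 counted hexose transporter and sensor genes, RGT2 was 1 of 2 higher and 5 were lower (8 and 3 with size factors), and HXT14 was among the lowest with 0.953 in RNAi and 22 in WT. In the vacuolar ATPase as a whole, 2 of 20 genes were higher and 12 lower (6 and 5 with size factors), VMA7 having 0.318 in RNAi and 33 in WT.

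**Figure D4:**
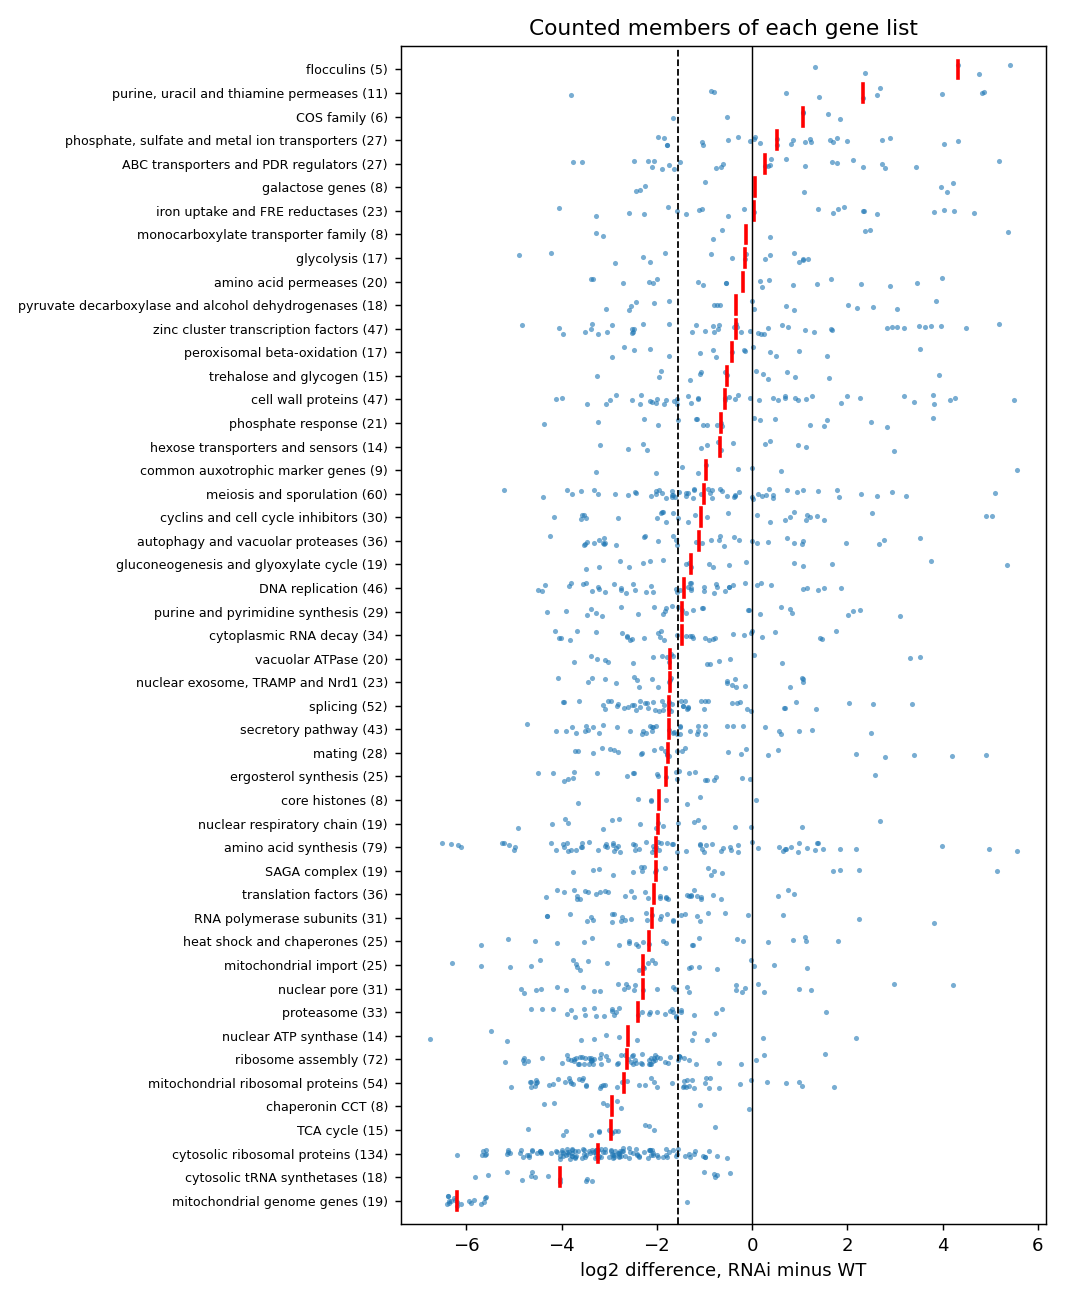
Log2 difference, RNAi minus WT, of each counted member (points) of every list with 5 or more counted members, with list medians (red) and member counts in brackets; the dashed line is the nuclear median of −1.56 and the solid line no difference. Flocculins have the highest median, 4.31, and the mitochondrial genome the lowest, −6.20.

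Most genes of protein synthesis held less small RNA in RNAi on the deposited scale. Of 134 counted cytosolic ribosomal protein genes, 0 were higher and 129 lower, with a median of −3.24, and with size factors 1 was higher and 98 lower. RPS22B had 14.0 in RNAi and 1253 in WT, and RPL25 had 8.26 in RNAi and 568 in WT. The highest difference of the list was −0.52. Ribosomal protein genes with an intron had 88 of 89 lower and those without 41 of 45, while other intron-containing genes had 22 of 170 higher and 108 lower. Of 36 counted translation factor genes, 0 were higher and 31 lower (4 and 18 with size factors), and EFB1, an elongation factor subunit, had 42.2 in RNAi and 912 in WT. Of 18 cytosolic tRNA synthetase genes, 0 were higher and 14 lower, with a median of −4.03, and with size factors 3 were higher and 13 lower; CDC60, the leucyl-tRNA synthetase, had 29.2 in RNAi and 1812 in WT, which is 62.0-fold lower (95% interval 50.3 to 77.3), and ILS1, the isoleucyl enzyme, had 10.5 in RNAi and 634 in WT. Ribosome assembly genes had 1 of 72 higher and 67 lower (5 and 40 with size factors), with NOP58, a snoRNP protein, at 12.7 in RNAi and 574 in WT. RNA polymerase subunits had 2 of 31 higher and 25 lower (4 and 13 with size factors). RPB2, the second largest subunit of RNA polymerase II, had 22.2 in RNAi and 496 in WT, and RPB4, of the same enzyme, had 715 in RNAi and 48 in WT and was the highest of the list.

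Mitochondrial genes encoded in the nucleus were lower in most cases on the deposited scale, and with size factors their medians stayed below 0, from −0.91 for import to −1.59 for mitochondrial ribosomal proteins. With size factors, ATP synthase genes had 2 higher and 8 lower, TCA cycle genes 1 and 12, and respiratory chain genes 4 and 9. Import genes then had 4 higher and 12 lower of 25, and mitochondrial ribosomal protein genes 7 and 33. Of 14 nuclear ATP synthase genes, 1 was higher and 10 lower, and ATP3 and ATP4 had 6.67 in RNAi and 435 in WT and 2.54 in RNAi and 198 in WT. TCA cycle genes had 0 of 15 higher and 14 lower; ACO1, aconitase, had 20.6 in RNAi and 621 in WT. Respiratory chain genes had 2 of 19 higher and 15 lower; QCR9, a subunit of the cytochrome bc1 complex, had 7.62 in RNAi and 322 in WT. Import genes had 1 of 25 higher and 20 lower. TOM70, an outer membrane receptor for precursor proteins, had 25.4 in RNAi and 2233 in WT, which is 87.9-fold lower (95% interval 70.3 to 111), and SSC1, the matrix Hsp70, had 14.6 in RNAi and 909 in WT. Mitochondrial ribosomal protein genes had 2 of 54 higher and 42 lower, with MRPL22 at 3.18 in RNAi and 209 in WT. All 19 genes of the mitochondrial genome were lower, with COX1 at 406 in RNAi and 32851 in WT, and the 4 identifiers of the 2-micron plasmid held 0.318 in all in RNAi and 8779 in WT.

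Genes of branched-chain amino acid synthesis, which works largely inside mitochondria, covered a wide range; they were put together after their values were seen and form no fixed list. ILV2, the acetolactate synthase, had 4.76 in RNAi and 629 in WT, which is 132-fold lower (95% interval 79.4 to 237), but ILV6, its regulatory subunit, had 731 in RNAi and 462 in WT and a log2 difference of 0.66. ILV5, the next enzyme, had 7.30 in RNAi and 333 in WT, and ILV3, the dehydratase, had 17.1 in RNAi and 1404 in WT. BAT1, the mitochondrial aminotransferase, had 5.40 in RNAi and 773 in WT, and BAT2, the cytosolic one, had 5.40 in RNAi and 62 in WT. On the leucine branch, LEU4 had 113 in RNAi and 636 in WT and LEU1 6.03 in RNAi and 169 in WT, while LEU2 had a log2 difference of −0.96 and did not reach 2-fold. OAC1, a mitochondrial carrier of oxaloacetate and isopropylmalate, had 2.54 in RNAi and 344 in WT, and LYS12, of mitochondrial lysine synthesis, had 5.08 in RNAi and 593 in WT. Of 79 amino acid synthesis genes in all, 10 were higher (12.7%) and 52 lower (65.8%), with a median of −2.01, beside 15.2% and 60.1% of all nuclear genes. With size factors 25 were higher and 31 lower, with a median of −0.27. MET2, the homoserine acetyltransferase, was among the higher ones with 1829.6 in RNAi and 55 in WT, while MET6, the methionine synthase, had 39.7 in RNAi and 1634 in WT.

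Complexes of protein folding and turnover were also mostly lower, though with size factors heat shock and chaperone genes had 7 higher and 8 lower, proteasome genes 2 and 17, and CCT genes 1 and 6. Proteasome genes had 1 of 33 higher and 30 lower, with PRE2, a catalytic subunit, at 5.40 in RNAi and 212 in WT and RPN9, the one higher, at 108 in RNAi and 35 in WT. Of the 8 CCT chaperonin genes, 0 were higher and 7 lower on this scale, from CCT8 with 4.13 in RNAi and 147 in WT to CCT2 with 124 in RNAi and 129 in WT. CCT6 had 47.6 in RNAi and 106 in WT, a log2 difference of −1.10 that is 0.73 with size factors. Heat shock and chaperone genes had 3 of 25 higher and 18 lower, with KAR2, the Hsp70 of the endoplasmic reticulum, at 10.5 in RNAi and 472 in WT. HAC1, the unfolded protein response regulator, had 132 in RNAi and 1699 in WT. ASC1, a ribosome-bound signalling protein, had 50.2 in RNAi and 1652 in WT, and MIS1, a mitochondrial folate enzyme, had 57.5 in RNAi and 1693 in WT.

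The lists of the nucleus, of the secretory pathway and of RNA decay are given next, beside the 60.1% of all nuclear genes that were lower. The lower share was 73.1% for splicing, 74.4% for secretory genes and 72.0% for ergosterol synthesis. It was nearer to the background for nuclear pore genes (67.7%), DNA replication (65.2%), purine and pyrimidine synthesis (65.5%) and cytoplasmic RNA decay (61.8%), and below it for the exosome, TRAMP and Nrd1 list (56.5%) and for autophagy and vacuolar proteases (52.8%). With size factors, splicing had 12 higher and 16 lower, DNA replication 13 and 16, nuclear pore genes 10 and 11, secretory genes 9 and 17, ergosterol genes 5 and 8, purine and pyrimidine genes 10 and 9, autophagy genes 14 and 11, cytoplasmic RNA decay 11 and 10, and the exosome list 10 and 8. Core histone genes, of which pairs are near-identical in sequence, had 0 of 8 higher and 7 lower, and summed to 23.5 in RNAi and 153 in WT. With size factors 1 was higher and 5 lower, and HTB2 moved from −1.09 to −0.13. Some of the lower calls rest on few reads, as for HHF1 with 0 in RNAi and 5 in WT and HHF2 with 0.318 in RNAi and 9 in WT. Nuclear pore genes had 3 of 31 higher and 21 lower: NUP53 had 521 in RNAi and 25 in WT, whereas NUP170 had 19.4 in RNAi and 645 in WT. Splicing genes had 4 of 52 higher and 38 lower, PRP39 having 716 in RNAi and 67 in WT and SNU114 9.21 in RNAi and 192 in WT. DNA replication genes had 5 of 46 higher and 30 lower, secretory genes 2 of 43 and 32, ergosterol genes 1 of 25 and 18, purine and pyrimidine genes 4 of 29 and 19, and autophagy and vacuolar protease genes 6 of 36 and 19. MCM4, a helicase subunit, had 1.91 in RNAi and 111 in WT, SEC7, a Golgi exchange factor, 8.89 in RNAi and 315 in WT, and APE1, a vacuolar aminopeptidase, 2783 in RNAi and 238 in WT. Phosphate response genes had 6 of 21 higher and 8 lower (11 and 2 with size factors), with PHO5, the repressible acid phosphatase, at 517 in RNAi and 34 in WT and PHO81, the cyclin-dependent kinase inhibitor of the pathway, at 21.6 in RNAi and 512 in WT. Cytoplasmic RNA decay genes had 3 of 34 higher and 21 lower, and the nuclear exosome, TRAMP and Nrd1 list 3 of 23 and 13. PAN3, of a deadenylase complex, had 0.953 in RNAi and 65 in WT, DCP2, the decapping enzyme, 6.03 in RNAi and 114 in WT, and MTR4, the TRAMP helicase, 13.0 in RNAi and 172 in WT.

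Convergent neighbours resembled each other more at short distances than at most longer ones. Over 1373 convergent pairs with both genes counted, the Pearson correlation between the partners' log2 differences (r) was 0.25, against 0.16 over 2528 tandem pairs and 0.09 over 1364 divergent pairs. Among convergent pairs, r was 0.45 over 158 pairs with fewer than 100 bases between coding regions, 0.31 over 440 pairs from there up to 200 bases, 0.17 over 340 pairs up to 300 bases and 0.14 over 260 pairs up to 500 bases. The 101 pairs between 500 and 1000 bases had r = 0.27 again, and the 62 pairs farther apart had −0.08. At 0 to 100 bases the 27 tandem pairs (r = 0.55) and the 8 divergent pairs (0.83) had higher values than the convergent pairs. Those tandem and divergent values rest on few pairs. Over all pairs from 0 to 300 bases, r was 0.29 for 938 convergent, 0.13 for 737 tandem and 0.099 for 345 divergent pairs. Pairs can share reads where the annotation overlaps, and a chromosome neighbourhood shares its library, so these are descriptions. In the 12 pairs whose coding regions overlapped, which include the CTF19 and IRC15 bases shown above, 29.2% of the genes were higher and 33.3% lower. From 0 to 100 bases it was 15.8% higher and 54.4% lower, beside 15.2% and 60.1% of all nuclear genes. Convergent pairs as a whole had 12.1% of genes higher and 64.4% lower, and both genes were lower in 625 pairs, both higher in 46 and opposite in 137. The share of pairs with both genes higher was 3.35% for convergent, 3.88% for tandem and 2.93% for divergent pairs.

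**Figure D5:**
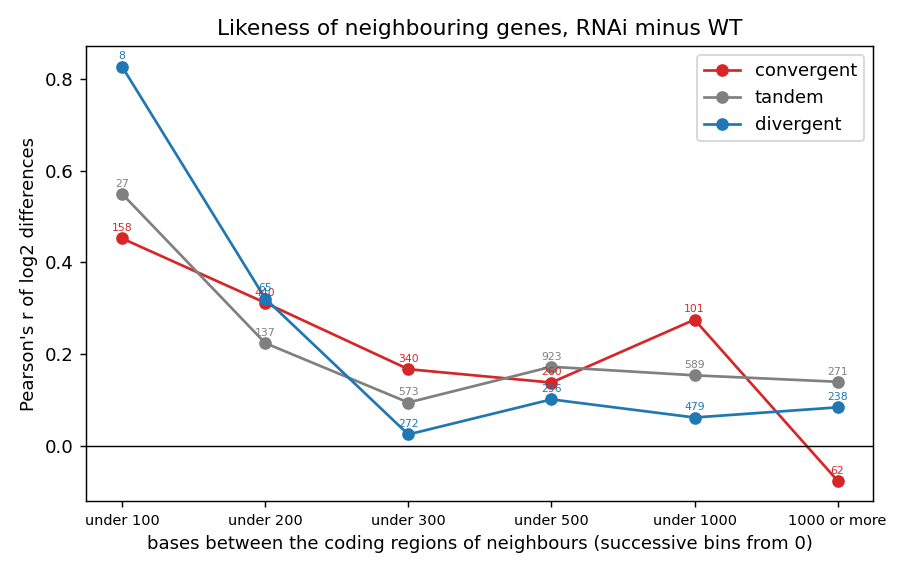
Pearson's r of the log2 differences, RNAi minus WT, of neighbouring genes (vertical axis) by the number of bases between their coding regions (horizontal axis) for convergent (red), tandem (grey) and divergent (blue) pairs, with the number of pairs beside each point. Convergent r is 0.45 over 158 pairs below 100 bases and 0.17 over 340 pairs between 200 and 300 bases; the leftmost tandem and divergent points rest on 27 and 8 pairs.

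The convergent pairs with the highest lower-of-both difference, a choice made on the values, were CHL4 and RMD5, HAT2 and POL5, CTF19 and IRC15, PTC3 and YBL055C, and WSS1 and YCK1. CHL4, a kinetochore protein gene, had 684 in RNAi and 31 in WT, and RMD5, a ubiquitin ligase subunit gene that ends 67 bases away, had 529 in RNAi and 25 in WT. HAT2, a histone acetyltransferase subunit gene, had 575 in RNAi and 47 in WT, and POL5, a nucleolar protein gene 97 bases away, had 1933 in RNAi and 123 in WT. WSS1, a protease of DNA repair, had 187 in RNAi and 20 in WT, and YCK1, a casein kinase gene 135 bases away, had 655 in RNAi and 60 in WT. PTC3, a protein phosphatase gene, had 1325 in RNAi and 124 in WT, and YBL055C had 1064 in RNAi and 115 in WT, with 404 bases between them.

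Longer runs of adjacent higher genes also occurred. A run of 7 on chromosome XV held ALD4, GDH1, YOR376W-A, ATF1, AMF1, RDR1 and FRE3, and another of 7 on chromosome I held YAL065C, YAL064W-B, TDA8, FLO9, GDH3, BDH2 and BDH1. ATF1, an alcohol acetyltransferase gene, had 1609 in RNAi and 75 in WT, and GDH3, a glutamate dehydrogenase gene, had 906 in RNAi and 54 in WT. Genes within 10 kb of a chromosome end were called higher in 16 of 33 counted cases, 48.5%, and lower in 11; of the 120 such genes most were not counted, and a gene that passed the filter through RNAi alone had to be on the higher side, so the share is set in part by the filter. At 10 to 20 kb 27.6% of 76 were higher, and at 100 kb or more 14.3% of 4174. These were the genes counted out of 115 and 4327, so the same limit of the filter bears on the 10 to 20 kb share. By chromosome, the higher share was 23.8% on I and 22.1% on III, against 11.4% on VI.

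Genes that share bases with another transcript were examined next. Of 64 counted genes whose coding region overlaps one of the other strand, 15 were higher (23.4%) and 27 lower (42.2%), with a median of −0.63. All nuclear genes counted had 15.2% higher and 60.1% lower. Of 9 genes with an annotated antisense RNA gene, 4 were higher and 2 lower, with a median of 0.18, too few genes to read a share. TAT1, which lies opposite TBRT, was higher as given above, and so was GAL4. IME4, the methyltransferase of meiotic entry that lies opposite RME2, had 80.0 in RNAi and 21 in WT, and GAL10, with an antisense RNA gene over most of its length, had 69.2 in RNAi and 31 in WT. PHO84, the phosphate transporter whose antisense transcript is well studied, had 325 in RNAi and 287 in WT, ZIP2, a synapsis protein gene opposite RME3, had 51.1 in RNAi and 63 in WT, and SPS100, a spore wall gene, 28.3 in RNAi and 28 in WT. TUB3 and YPL247C, which overlap their antisense genes by 120 and 24 bases, were the 2 lower ones, with 5.40 in RNAi and 67 in WT and with 14.9 in RNAi and 136 in WT. The strand of the reads is not known, so sense and antisense reads cannot be told apart, nor, in bulk RNA, can more cells with an RNA and more of it per cell. All 9 genes with an annotated snoRNA within them on the same strand were lower, with a median of −4.33, beside 60.1% lower of all nuclear genes counted. They included RPL7A (2.86 in RNAi and 170 in WT), IMD4 (23.8 in RNAi and 533 in WT) and TEF4 (59.1 in RNAi and 157 in WT). The log2 difference of TEF4 was 0.48 with size factors. RPL7A, RPL7B and RPS22B among the 9 are ribosomal protein genes, a list with 129 of 134 lower, and EFB1 is a translation factor gene. The lower calls of the 9 therefore cannot be told apart from those of these lists.

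Cut into 5 bins by coding length, the bin of the longest genes had 19.3% higher and 57.7% lower, and that of the shortest 11.1% higher and 62.0% lower. The medians did not follow, with −1.60 for the longest and −1.42 for the shortest. The median WT reads were 118.5 for the longest and 19 for the shortest, and the part of read depth and pseudocount in these shares was not tested. By value per kb in the xrn1 library, which is not part of the comparison, the top bin of 5 had 12.8% higher and 67.2% lower, and the bottom bin 17.1% higher and 54.9% lower.

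Promoter windows of 250 bases before to 50 after the start codon's first base were searched on both strands. Shares are to be read beside the 15.2% higher and 60.1% lower of all nuclear genes counted. The Gal4 motif CGGNNNNNNNNNNNCCG was in 1.35% of 5766 windows, and of the 76 such genes counted 19 were higher (25%) and 36 lower (47.4%). The Gcn4 motif TGACTCA was in 2.77% of windows, with 23 of 157 genes higher (14.6%) and 99 lower (63.1%), near the shares of all nuclear genes. The PAC motif GCGATGAG of ribosome assembly genes was in 4.09%, with 28 of 235 higher (11.9%) and 165 lower (70.2%). The proteasome motif GGTGGCAAA was in 1.23%, with 5 of 70 higher (7.14%) and 52 lower (74.3%). The drug response motif TCCGCGGA was in 0.156%, PDR3 among them, with 3 of 9 higher (33.3%) and 5 lower (55.6%), too few genes to read a share. A match is a description of the letters and is no evidence of binding.

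The same genes were then read in the pair without XRN1, which shares no library with RNAi and WT. There, xrn1 RNAi over xrn1, 834 of 5417 nuclear genes counted (15.4%) were higher and 3136 (57.9%) lower. Of genes counted in both pairs, 533 were higher in both, 64.8% of the 822 higher in RNAi over WT and 64.3% of the 829 higher in the other pair. Lower in both were 2607, 81.4% of 3203 and 84.1% of 3101. Among the genes higher in RNAi over WT, 37 were lower in the other pair, and among those lower, 65 were higher. Glycolysis genes differed in their counts: 3 of 17 were higher and 6 lower in RNAi over WT, and 0 were higher and 17 lower in xrn1 RNAi over xrn1; that difference was not tested. TRP1, HMS2 and PDR3 had 5452, 2246 and 5449.5 in xrn1 RNAi, and 452, 189 and 444 in xrn1. ILV2 and TOM70 had 10.7 and 5.56 in xrn1 RNAi, and 834 and 909 in xrn1.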

How the data were processed

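Small RNAs of 10 to 40 nucleotides were sequenced, 1 library per genotype, with groups taken from the labels. Per the submitters' processing notes, cutadapt (adapter trimming) and Bowtie (alignment) were used. Versions, build, annotation, strand, treatment of multiply mapping reads and the scaling rule: not given in the sources used here. The WT column holds a deposited count of reads per gene, and the other 3 columns a deposited signal per gene that is a whole number of reads times 1 factor: 100% of values were whole to a tolerance of 1e-06, so reads were recovered. The WT summed value is 627607 and that of RNAi 572087. Intervals are exact Clopper-Pearson at 95% and, as no molecular identifiers are named, cover counting error only.

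The pseudocount, 3.18, is the 10th percentile of non-zero values. Of the identifiers, 5789 matched RefSeq R64, used for names, order and sequence, and 9 did not. The lists (52) and named genes were chosen with earlier results of these data known. Named were XRN1, the 15 highest and 15 lowest differences among genes of value 31.8 or more, the 10 highest values of RNAi and of WT nuclear genes, the 3 largest differences in each list, all members of lists of 8 or fewer, and 5 convergent pairs; other names were chosen after their values were seen. One gene that the rule names is not reported here. As a count test on recovered reads, edgeR 4.0.16 and DESeq2 1.42.0 in R 4.3.3 fitted 1 term for DCR1 with AGO1 and 1 for the XRN1 deletion, without interaction, to all 4 libraries, with 1 residual degree of freedom. Counting and this fit were tested on simulated data.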

Additional observations from a re-analysis of the deposited data

Results flagged for a closer look

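Of the genes named by rule, 3 differed 2-fold or more in opposite directions in the XRN1-intact and the xrn1 pair, which drew attention to them; the difference between the pairs was not tested, as each library stands alone. GAL2, the galactose permease gene, had a log2 difference of −2.36 in RNAi over WT (3.49 in RNAi and 31 in WT) and of 1.18 in xrn1 RNAi over xrn1 (8.54 in xrn1 RNAi and 1.98 in xrn1). FBP1, the fructose bisphosphatase gene, had −3.48 (3.81 in RNAi and 75 in WT) and 2.35 (19.8 in xrn1 RNAi and 1.32 in xrn1). POT1, the peroxisomal thiolase gene, had −2.69 (4.76 in RNAi and 48 in WT) and 2.52 (47.2 in xrn1 RNAi and 5.62 in xrn1). With size factors the RNAi over WT differences were −0.99 for GAL2, −2.05 for FBP1 and −1.21 for POT1, so GAL2 fell short of 2-fold. The xrn1 values of GAL2 and FBP1 lay below the pseudocount of 3.18.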

How the results depend on the processing

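No paired analysis was possible because each genotype has 1 library and the labels give no replicate numbers. The count of higher genes, 833, was 443 at a 4-fold threshold, 1882 with size factors and 1357 with DESeq2 (adjusted p, fitted over 4 libraries). The count of lower genes, 3303, was 1898 with a pseudocount 10 times higher, 1762 with size factors, 1043 with edgeR and 1029 with DESeq2. The edgeR test called 1129 of 5429 genes higher, and 2669 had an unadjusted p under 0.05. It estimated a dispersion of 0.251 from 1 residual degree of freedom, and it tests the effect over both XRN1 backgrounds rather than RNAi over WT alone. For single genes, CCT6, lower by 2-fold or more, turned from −1.10 to 0.73 with size factors. Some genes within 2-fold also changed sign with them, among them MEP2 (−0.86 to 0.99), GAL3 (−0.98 to 0.64) and CCT2 (−0.06 to 1.81). Apart from CCT6, 1365 gene values under alternatives kept their side of the 2-fold threshold, 7 passed it and 25 fell short of it, over 202 genes. Of the list medians relative to nuclear genes, 298 kept their side, 25 passed the threshold and 19 fell short, over 49 lists, and 0 turned round. Depth limits the low values: the median nuclear gene had 35 reads in RNAi and 48 in WT.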
